A study of Mus musculus with 6 samples.

Results

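The genes described here encode the enzymes and transporters that take up glucose, split it to pyruvate and oxidise it in the citric acid cycle. They are 45 genes chosen by symbol, 4 for glucose entry, 18 for glycolysis with lactate dehydrogenase and the PFKFB regulators, 9 for pyruvate dehydrogenase, its kinases and pyruvate carboxylase, and 14 for the citric acid cycle with its cytosolic counterparts. All 45 were found among the 23079 rows of the counts table, and all 45 passed the filter on low counts that left 16766 genes for the test. RNA came from midbrain dopaminergic neurons of Dat bacTRAP mice on a C57BL/6 background, aged 4 months, a line in which dopamine transporter regulatory sequences drive a tagged ribosomal protein. Both groups received an adeno-associated virus of serotype 1 that carried EGFP, with a scrambled hairpin in the 3 control libraries and a hairpin against Satb1 in the 3 knockdown libraries. The sample titles speak of siRNA, and the labels give 3 mice in all without tying libraries to mice, so the p-values below measure the spread between libraries, which may be technical.

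In a cell, glucose enters through facilitative transporters, is trapped by hexokinase and is split to pyruvate with a small gain of ATP. Pyruvate is either reduced to lactate or passes the pyruvate dehydrogenase complex, whose kinases switch it off by phosphorylation, to feed the citric acid cycle in the mitochondrion. Neurons rely on oxidation of pyruvate and lactate, and dopaminergic neurons of the substantia nigra are known for a high mitochondrial energy demand.

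Library totals lay between 147486754 and 170351145 counts and 1 count stood for 0.00557 to 0.00672 CPM (counts scaled to a common library size, here with the trimmed mean of M-values, TMM). Satb1, the targeted gene, was lower in every knockdown library (82.9, 166 and 61.2 CPM, in the order of libraries 1, 2 and 3) than in any control library (351, 350 and 319.8 CPM), least so in knockdown library 2. The dopamine neuron markers examined were all detected, with a summed level of 12500 to 13800 CPM in controls against 8450 to 10700 CPM in the knockdown, and 6 of the 10 fell. Markers of other cells were present in both groups and none was at 0 throughout: the summed level went from between 399 and 468 to between 630 and 710 CPM for 10 oligodendrocyte genes (8 rose), from between 265 and 314 to between 250 and 255 CPM for 10 astrocyte genes (3 rose, 1 fell), from between 52.5 and 55.9 to between 44.7 and 52.6 CPM for 10 microglia genes (1 rose, 2 fell), and was between 4.50 and 9.45 CPM in all libraries for 10 endothelial genes (1 rose). The part of such cells in the results below was not tested. In pooled RNA fewer cells of a type, less RNA per cell and a different purity of the neuronal RNA cannot be told apart.

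Of the 45 members, 3 rose and 5 fell in the knockdown (adjusted p under 0.05), or 17.8% of them. Among all genes tested 21.1% were called, 8.48% higher and 12.6% lower, so the share of members called was near the background. Of genes at a mean level of 20 CPM or more, 32.6% were called, 8.76% higher and 23.8% lower, against 7 of the 38 members at that level (18.4%). The members that rose were Suclg2, Pfkfb2 and Pfkfb3, and those that fell were Pdk2, Idh1, Mdh1, Pgk1 and Dlat. The median log2 fold change of the members was 0.02, beside 0.01 for all genes tested. All knockdown libraries lay above all control libraries for 5 members and below them for 7, where the shares among all genes tested were 17.9% and 20.8%, or 38.7% in either direction. Summed over the members, these genes made up 1.77%, 1.88% and 2.03% of all counts in the controls against 1.91%, 2.01% and 2.28% in the knockdown, values given here and below in the order of libraries 1, 2 and 3, and the groups overlapped. With TMM scaling the sums were 18520, 19740 and 21990 CPM in controls against 17540, 19290 and 21720 CPM in the knockdown, so that the order of the group means depended on the scaling.

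**Figure D1:**
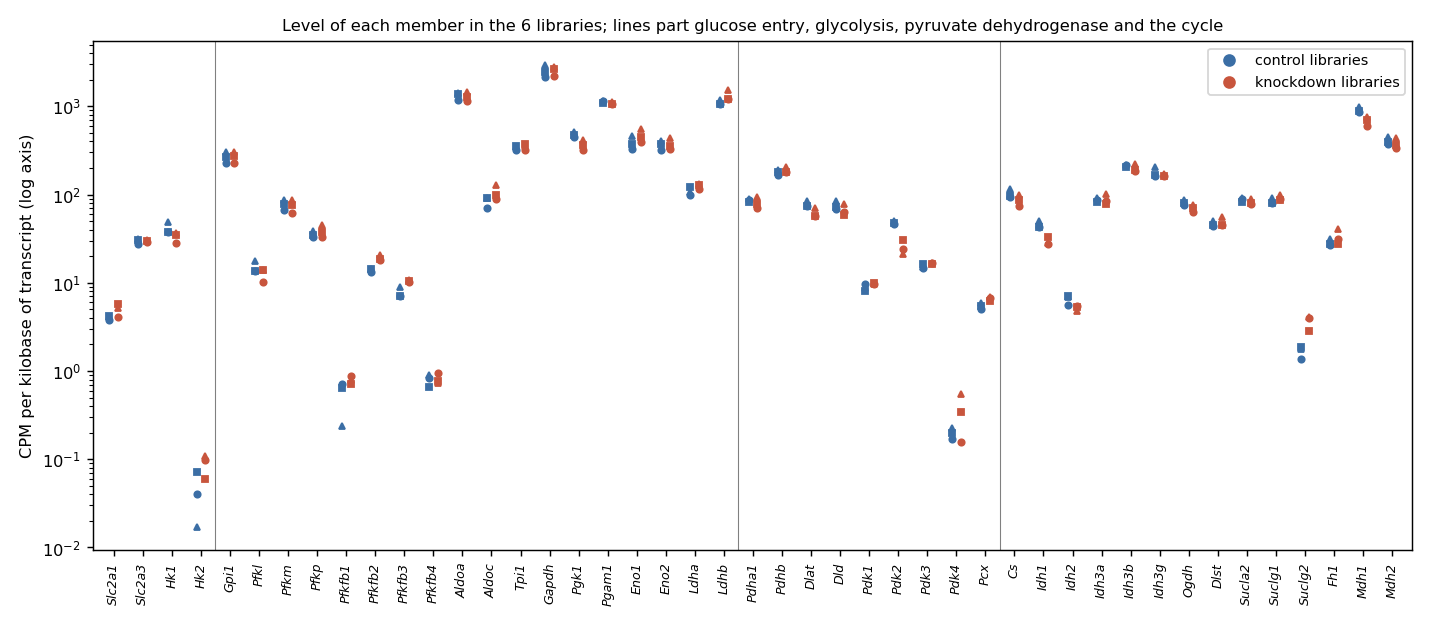
Level of each of the 45 members in the 6 libraries, as CPM per kilobase of transcript on a log axis, with control libraries in blue, knockdown libraries in red, and circles, squares and triangles for libraries 1, 2 and 3. In controls the members span from 0.04302 (Hk2) to 2519 (Gapdh), and for most of them the red and blue points overlap.

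The balance of higher and lower calls depended on how libraries were scaled. With total counts in place of TMM the median log2 fold change of all genes tested moved from 0.01 to 0.18, and 10 members were then called higher and 3 lower. Suclg2, Pfkfb2, Pfkfb3, Pdk2, Idh1 and Mdh1 were called in the same direction under both scalings, while the calls for Pgk1 and Dlat were lost. Slc2a1, Aldoc, Eno1, Ldha, Ldhb, Pcx and Suclg1 were called higher with total counts and did not pass with TMM. Levels of different genes are compared below only per kilobase of transcript, and isozyme pairs are given as shares, which do not depend on the scaling.

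Glucose entry held no called gene among its 4 members. Slc2a3, which encodes the neuronal glucose transporter GLUT3, was at 109, 120 and 124 CPM in controls against 114, 118 and 122 CPM in the knockdown. Its log2 fold change of 0.01 ± 0.09 (SE) changed sign, to -0.05 without control library 1 and to -0.003 without knockdown library 3. Slc2a1, which encodes GLUT1 of the blood-brain barrier and glia, was at 12.3, 13.8 and 13.2 CPM in controls against 13.3, 18.6 and 17.1 CPM in the knockdown, and the groups overlapped (log2 fold change 0.32 ± 0.15, SE; adjusted p = 0.152). Per kilobase, Slc2a1 made up 12.1%, 12.3% and 11.5% of the pair in controls and 12.4%, 16.1% and 14.5% in the knockdown, so that the share was higher in each knockdown library, by little in library 1. Hk1, the hexokinase of brain that sits on the mitochondrial outer membrane, was at 143, 143 and 189 CPM in controls against 108, 134 and 140.2 CPM in the knockdown. The groups did not overlap, but the log2 fold change of -0.31 ± 0.13 (SE) missed the threshold (adjusted p = 0.108). Hk2, the hexokinase of muscle and many tumours, was at most 0.597 CPM in any library.

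Gapdh and Aldoa, the most abundant glycolysis members per kilobase, did not pass, and their groups overlapped. Gapdh, which makes the first high-energy intermediate of the pathway, was the most abundant member and was at 3061, 3448 and 4221 CPM in controls against 3125, 3757 and 3905 CPM in the knockdown. The knockdown range lay inside the control range, and the log2 fold change was 0.01 ± 0.11 (SE; adjusted p = 0.975; between -0.10 and 0.18 over the alternatives). Aldoa, the aldolase that cleaves the hexose bisphosphate, was at 1792, 2055 and 2163 CPM in controls against 1747, 1915 and 2213 CPM in the knockdown, also without separation (-0.03 ± 0.10, SE; adjusted p = 0.863; 0.13 with total-count scaling). Summed over the 18 glycolysis members the level was 12700, 13850 and 15420 CPM in controls against 12720, 14120 and 15860 CPM in the knockdown. Library 3 of each group was the highest and library 1 the lowest, and this spread within groups exceeded the difference of the group means, 13990 and 14230 CPM. As a percent of all counts the sums were 1.21%, 1.32% and 1.43% in controls against 1.39%, 1.47% and 1.66% in the knockdown, which also overlapped. Of the 18 genes, 15 did not pass the test, and the log2 fold changes of all 18 lay between -0.39 and 0.58.

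Pgk1, phosphoglycerate kinase, which forms ATP in the payoff phase, was the glycolytic enzyme that fell. It was at 821, 871 and 934 CPM in controls against 583, 662 and 766 CPM in the knockdown, and every knockdown library lay below every control library. The mean went from 876 ± 56.9 to 670.4 ± 91.4 CPM (SD, n = 3 each), and the log2 fold change was -0.39 ± 0.10 (SE; adjusted p = 0.0189 by the quasi-likelihood test of edgeR). The call was lost with total-count scaling (log2 fold change -0.22, adjusted p = 0.115), without control library 2 (adjusted p = 0.066), without control library 3 (adjusted p = 0.0745) and without knockdown library 1 (adjusted p = 0.0893).

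Both main genes of the PFKFB family rose. These bifunctional enzymes make and remove fructose 2,6-bisphosphate, the strongest activator of phosphofructokinase, and PFKFB3 has the highest kinase to phosphatase activity of the family. Pfkfb2 was at 59.2, 63.0 and 63.9 CPM in controls against 80.6, 83.0 and 92.0 CPM in the knockdown, a gap between the groups wider than the range within either. Its mean went from 62.0 ± 2.54 to 85.2 ± 5.99 CPM (SD, n = 3 each; log2 fold change 0.46 ± 0.10, SE; adjusted p = 0.00606). Exons of Pfkfb2 overlap those of Yod1 on the opposite strand, a gene that rose from 12.4 to 22.1 CPM, and those of the gene model Gm29427 on the same strand, which counting by strand would not separate. How the counting treated strand and shared exons was not stated, so the value for Pfkfb2 is uncertain. Pfkfb3, whose exons overlap no other annotated gene, was at 33.1, 32.6 and 41.0 CPM in controls against 47.4, 48.2 and 50.4 CPM in the knockdown. It rose 1.37-fold, by 0.45 ± 0.12 on the log2 scale (SE; adjusted p = 0.015), and the groups did not overlap, although control library 3 lay closer to the knockdown than the other controls did. The call was lost without control library 1 (adjusted p = 0.0621) or control library 2 (adjusted p = 0.0792). Pfkfb1 and Pfkfb4 stayed at or below 3.35 CPM in all libraries and did not pass. Per kilobase, the family summed to 22.1, 22.6 and 24.4 in controls and 30.3, 30.6 and 33.2 in the knockdown, with Pfkfb2 at 61.0% and 61.3% of the family on average in the 2 groups.

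The phosphofructokinases themselves, the committed step of the pathway, did not pass. Pfkm, the muscle-type subunit, made up 60.5% of the 3 genes per kilobase in controls and 59.3% in the knockdown. Pfkp, the platelet-type subunit, had a share of 29.2%, 27.5% and 26.8% in controls and 31.7%, 29.3% and 30.9% in the knockdown, with knockdown library 2 only just above control library 1. Among the other isozymes, the share of Eno1, the widespread enolase, beside Eno2, the neuronal one, was 50.7%, 49.98% and 52.8% in controls and 54.9%, 55.8% and 55.5% in the knockdown, and the share of Aldoc, the aldolase common in astrocytes, beside Aldoa was 5.65%, 6.33% and 6.07% in controls and 7.07%, 7.19% and 8.10% in the knockdown. Both shares were higher in all knockdown libraries, while neither Eno1 (log2 fold change 0.25, adjusted p = 0.204) nor Aldoc (0.30, adjusted p = 0.152) passed. Shares were not tested. The astrocyte markers had a median log2 fold change of 0.58, with a summed level at 0.862 of the control. Their part in the share of Aldoc was not tested.

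Lactate dehydrogenase, which interconverts pyruvate and lactate, was mainly Ldhb, the heart-type subunit. Ldhb was at 1378, 1389 and 1539 CPM in controls against 1562, 1581 and 1996 CPM in the knockdown, where the lowest knockdown library lay just above the highest control. Its log2 fold change of 0.26 ± 0.10 (SE) did not pass (adjusted p = 0.0914), but passed with total-count scaling (0.42, adjusted p = 0.0069) and with a filter at a mean of 1 CPM (0.30, adjusted p = 0.0366). With same-numbered libraries blocked it also passed (0.25, adjusted p = 0.00637), though the labels do not pair them. Ldha, the muscle-type subunit, was at 9.01% of the pair per kilobase in controls and 8.75% in the knockdown, without separation of the groups.

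**Figure D2:**
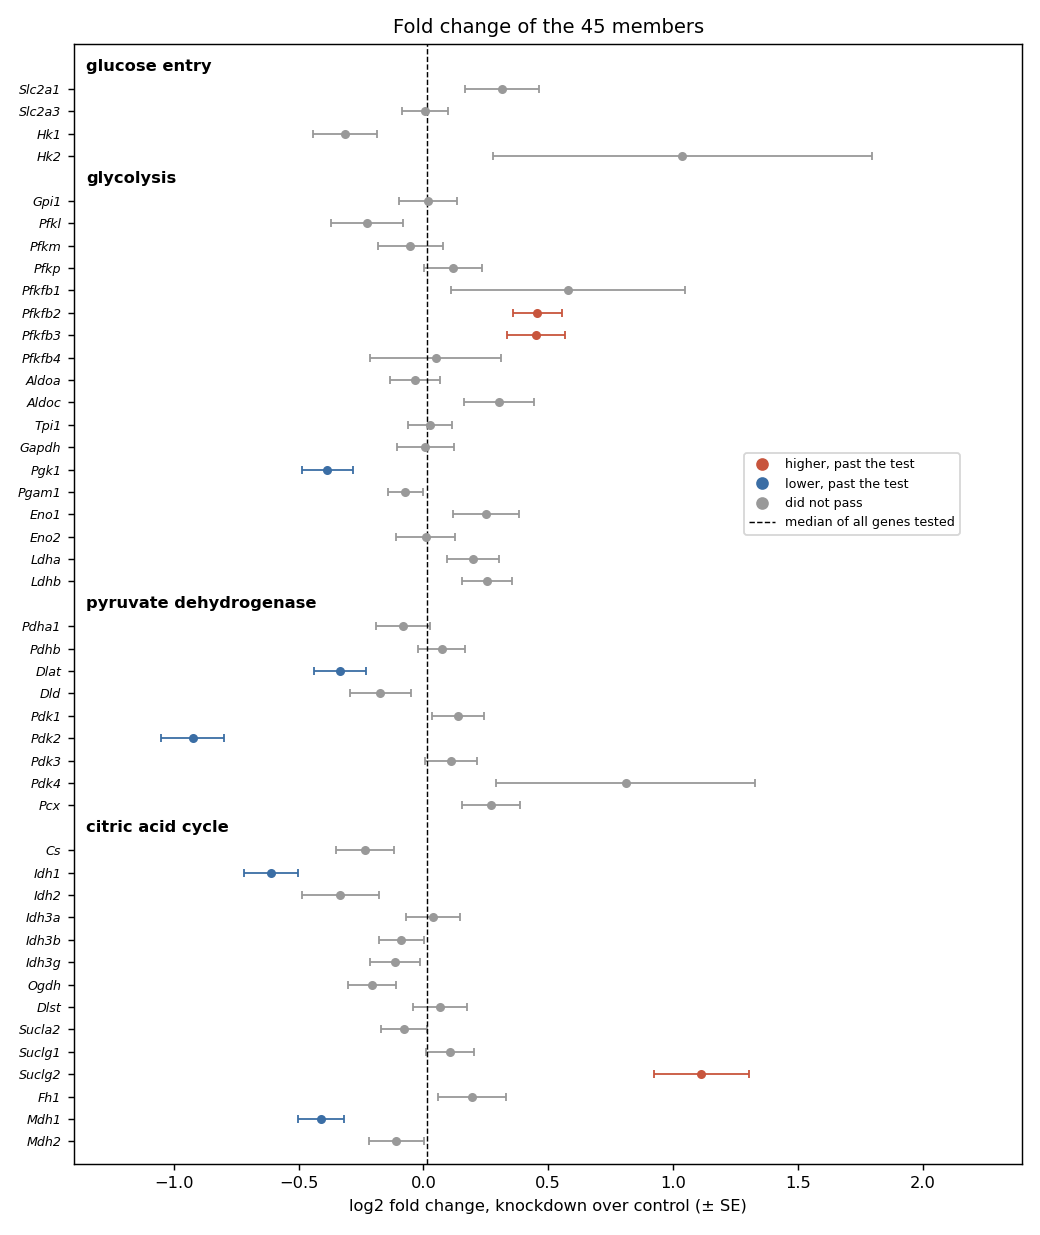
Log2 fold change of knockdown over control for the 45 members by role, with points for the estimate, bars for its standard error and a dashed line at the median of all genes tested, 0.01. Pfkfb2, Pfkfb3 and Suclg2 (red) lie to the right, and Pgk1, Dlat, Pdk2, Idh1 and Mdh1 (blue) to the left, while 37 members in grey did not pass.

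At the entry to the cycle, Pdk2 fell furthest of the 45 members. It encodes the pyruvate dehydrogenase kinase that is widespread in tissues and abundant in brain, and was at 103, 107 and 114 CPM in controls against 53.8, 68.9 and 47.9 CPM in the knockdown. The highest knockdown library, library 2, lay well under the lowest control. The mean fell 1.90-fold, from 108 ± 5.32 to 56.9 ± 10.8 CPM (SD, n = 3 each; log2 fold change -0.92 ± 0.13, SE; adjusted p = 0.000592). The other kinases did not pass. Pdk1 was at 50.7, 42.3 and 44.8 CPM in controls against 50.6, 51.6 and 49.6 CPM in the knockdown, Pdk3 stayed between 30.8 and 35.4 CPM in all libraries, and Pdk4, the kinase induced by fasting, was at 0.597 to 0.787 CPM in controls against 0.546 to 1.92 CPM in the knockdown. Per kilobase the 4 kinases together went from 70.4, 72.2 and 74.4 to 50.4, 57.1 and 48.2, and Pdk2 went from 65.2%, 65.8% and 68.0% of them to 47.5%, 53.7% and 44.3%.

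**Figure D3:**
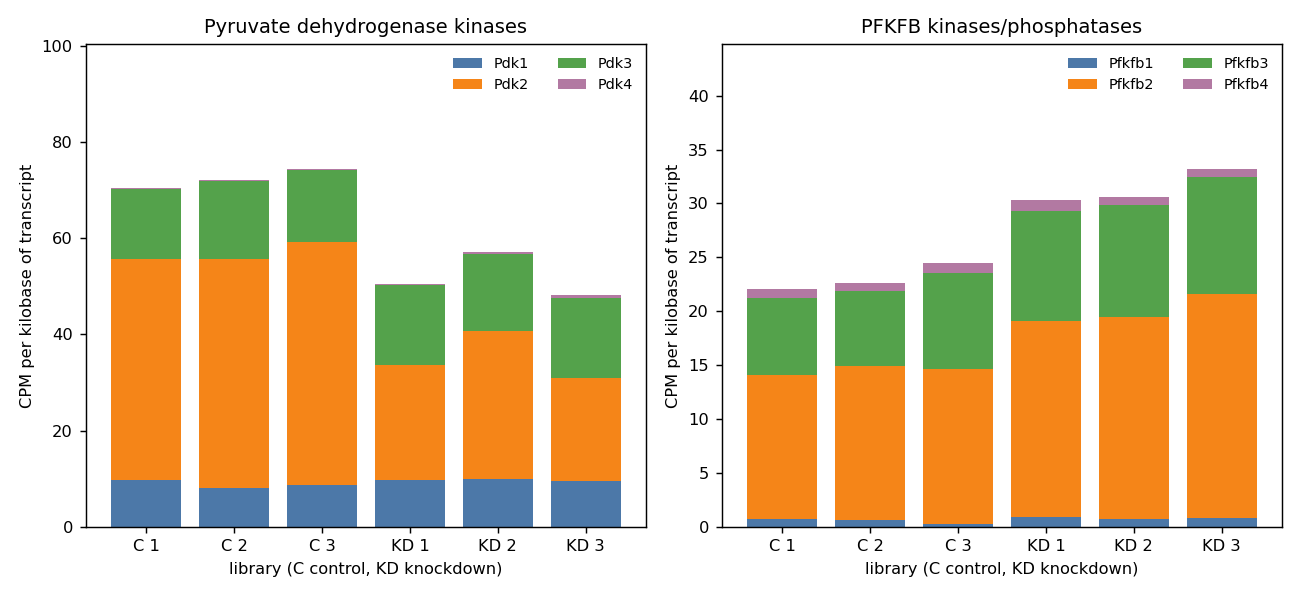
Stacked level per library, in CPM per kilobase of transcript, of the 4 pyruvate dehydrogenase kinase genes (left) and the 4 PFKFB genes (right), for control (C) and knockdown (KD) libraries 1 to 3. The kinase total falls from between 70.4 and 74.4 in controls to between 48.2 and 57.1 in the knockdown, mostly through Pdk2 (orange), and the PFKFB total is 22.1 to 24.4 in controls and 30.3 to 33.2 in the knockdown.

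Of the complex itself, Dlat, the acetyltransferase core (E2), fell, and Pdha1, Pdhb and Dld did not pass. Dlat was at 296, 300.2 and 341 CPM in controls against 229.7, 229 and 285 CPM in the knockdown. Its groups were separated by a margin narrower than the range within either (log2 fold change -0.33 ± 0.11, SE; adjusted p = 0.0417). This call was lost with total-count scaling (-0.17, adjusted p = 0.262), with a filter at a mean of 1 CPM (adjusted p = 0.0512) and when any library but knockdown library 3 was left out (adjusted p between 0.0609 and 0.158). Pdhb, the beta subunit of E1, was at 254, 269.9 and 287 CPM in controls against 272, 269.7 and 312 CPM in the knockdown (0.07 ± 0.09, SE). Pcx, pyruvate carboxylase, which makes oxaloacetate to refill the cycle, was at 20.5, 22.1 and 23.96 CPM in controls against 27.0, 25.1 and 28.3 CPM in the knockdown. Its groups did not overlap, and its log2 fold change of 0.27 ± 0.12 (SE) did not pass (adjusted p = 0.118).

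In the citric acid cycle group 1 gene rose and 2 fell among 14, or 21.4%, beside 21.1% of all genes tested. The 2 that fell, Mdh1 and Idh1, encode cytosolic enzymes, and they are too few to read a pattern from. Mdh1, cytosolic malate dehydrogenase of the malate-aspartate shuttle, was at 1847, 1864 and 2061 CPM in controls against 1280, 1472 and 1591 CPM in the knockdown, so that all knockdown libraries were lower. The mean went from 1924 ± 119 to 1448 ± 157 CPM (SD, n = 3 each; log2 fold change -0.41 ± 0.09, SE; adjusted p = 0.00799). With total-count scaling the log2 fold change was -0.24 (adjusted p = 0.0498). Exons of Mdh1 overlap those of Wdpcp on the opposite strand, which was at 8.96 CPM in controls against 12.8 CPM in the knockdown. Mdh2, its mitochondrial counterpart, was at 547, 579 and 649 CPM in controls against 484, 523 and 638 CPM in the knockdown, with overlap (-0.11 ± 0.11, SE; 0.06 with total-count scaling). The share of Mdh1 in the pair per kilobase was 69.9%, 68.8% and 68.6% in controls and 64.5%, 65.9% and 63.1% in the knockdown, lower in each knockdown library whatever the scaling.

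Idh1, the cytosolic isocitrate dehydrogenase that makes NADPH, was at 97.4, 99.8 and 114 CPM in controls against 63.0, 76.0 and 64.9 CPM in the knockdown, with a clear gap between the groups. It fell 1.53-fold (log2 fold change -0.61 ± 0.11, SE; adjusted p = 0.00228). Idh2, the mitochondrial enzyme of the same reaction, was at 9.75, 12.2 and 12.1 CPM in controls against 9.49, 9.23 and 8.36 CPM in the knockdown, lower in every knockdown library but not past the test (-0.33 ± 0.15, SE; adjusted p = 0.15). The NAD-linked enzyme of the cycle, whose subunits are encoded by Idh3a, Idh3b and Idh3g, had log2 fold changes of 0.04, -0.09 and -0.12, and none passed.

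Suclg2 rose most of the members. It encodes the GTP-forming beta subunit of succinyl-CoA ligase and was at 4.66, 6.30 and 6.02 CPM in controls against 13.3, 9.61 and 13.8 CPM in the knockdown. The lowest knockdown library, library 2, was above the highest control, and the mean went from 5.66 ± 0.877 to 12.2 ± 2.29 CPM (SD, n = 3 each; log2 fold change 1.11 ± 0.19, SE; adjusted p = 0.00187). Sucla2, the ATP-forming beta subunit typical of brain, was far more abundant per kilobase and did not pass (-0.08 ± 0.09, SE). Suclg2 made up 1.55%, 2.21% and 1.93% of the pair in controls and 4.86%, 3.41% and 4.38% in the knockdown. In the same libraries the summed level of oligodendrocyte markers was 455, 468 and 399 CPM in controls against 710, 630 and 660 CPM in the knockdown. Summed astrocyte and microglia markers were lower on average, at 0.862 and 0.879 of the control level. Their median log2 fold changes were 0.58 and 1.04, beside 0.59 for oligodendrocyte, 0.84 for oligodendrocyte precursor and 0.62 for endothelial markers. The part of any of these cells in the rise of Suclg2 was not tested.

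**Figure D4:**
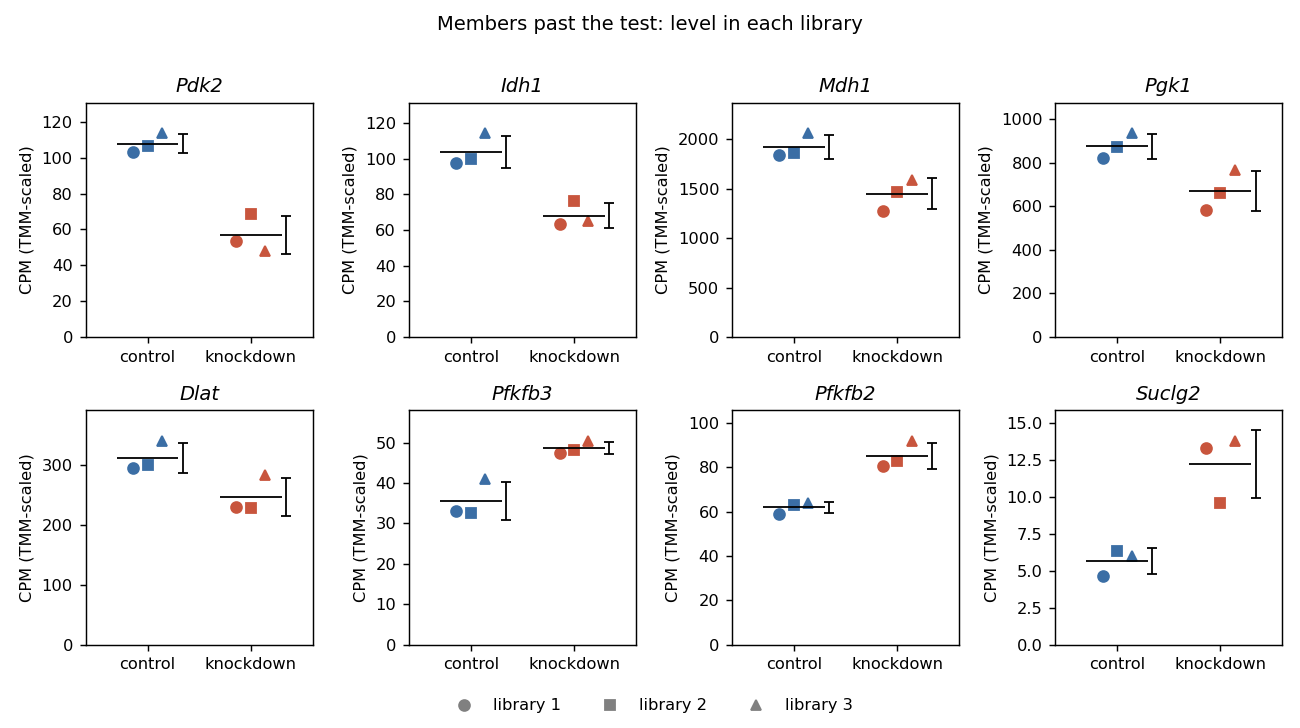
Level in CPM of the 8 members past the test, on axes that start at 0, with blue points for control and red for knockdown libraries (circle, square and triangle for libraries 1, 2 and 3), a line at each mean and a bar of 1 SD beside it. The groups do not overlap in any of the 8 panels, and in those of Pdk2, Idh1 and Suclg2 the knockdown library nearest to the controls is library 2, while it is library 3 for Pgk1, Mdh1 and Dlat and library 1 for Pfkfb2 and Pfkfb3.

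The remaining enzymes of the cycle did not pass. Cs, citrate synthase, was at 275, 283 and 335 CPM in controls against 217, 252 and 291 CPM in the knockdown (log2 fold change -0.23, adjusted p = 0.181), and Ogdh, the E1 of oxoglutarate dehydrogenase, at 317, 329 and 353 CPM in controls against 259, 288 and 318 CPM in the knockdown (-0.21, adjusted p = 0.151). Both sets of libraries overlapped. Dlst, Suclg1 and Fh1, which encode the E2 of oxoglutarate dehydrogenase, the alpha subunit of succinyl-CoA ligase and fumarase, had values of 0.07, 0.11 and 0.19. Summed over the 14 genes the level was 4382, 4420 and 4930 CPM in controls against 3558, 3847 and 4358 CPM in the knockdown, which did not overlap, by a narrow margin. As a percent of all counts they were 0.418%, 0.420% and 0.456% in controls against 0.388%, 0.401% and 0.457% in the knockdown, and overlapped. Without Mdh1 the sums were 2535, 2556 and 2869 CPM and 2279, 2375 and 2767 CPM, and they overlapped.

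Genes next to these steps were read from 5 lists, by the same fit. In the order given below, 30%, 41.7%, 12.5%, 22.2% and 42.9% of their tested genes were called, beside 21.1% of all genes tested. Of genes at a mean level of 20 CPM or more, 32.6% were called, 8.76% higher and 23.8% lower. Of 30 other genes of glycolysis, pyruvate transport and the cycle, 8 fell and 1 rose, with a median log2 fold change of -0.21 beside 0.01 for all genes. Those with the smallest p were Me1, the cytosolic malic enzyme that makes NADPH (-0.76 ± 0.10, SE; adjusted p = 0.000504), Sdhb, the iron-sulphur subunit of succinate dehydrogenase (-0.55), Tigar, a fructose 2,6-bisphosphatase listed as 9630033F20Rik (-0.69), and the mitochondrial malic enzyme gene Me2 (-0.59). The 1 gene that rose, Pdpr, which encodes the regulatory subunit of pyruvate dehydrogenase phosphatase (0.55), and Me3 (-0.46), Pdhx (-0.51), Sdhd (-0.37) and the pyruvate carrier gene Mpc1, listed as Brp44l (-0.31), complete the called genes and were named after their values were seen. The muscle-type pyruvate kinase gene, listed as Pkm2, did not pass (0.20). The call for Mpc1 was lost without any single library, with relative log expression or total-count scaling and with a filter at a mean of 1 CPM, that for Sdhd without control library 1 and with total-count scaling, that for Me3 with total-count scaling, without control library 1 and without knockdown library 1, and that for Pdhx without knockdown library 1. With total-count scaling 5 of the list were lower and 3 higher, and 5 were lower without control library 1 or knockdown library 1.

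Of 12 genes for lactate transport and redox shuttles, 3 rose and 2 fell. Got2, the mitochondrial aspartate aminotransferase of the malate-aspartate shuttle, fell from 362 to 218 CPM (log2 fold change -0.74, adjusted p = 0.001), and Slc25a11, its oxoglutarate carrier, fell by 0.34 on the log2 scale. The cytosolic aminotransferase gene Got1 was at -0.01 and did not pass. The monocarboxylate transporter genes Slc16a3 (0.69) and Slc16a1 (0.50), at 6.82 and 16.5 CPM in controls, rose. So did the glycerol phosphate shuttle gene Gpd1 (0.75), named after its value was seen. Slc16a7, another monocarboxylate transporter gene (-0.41, adjusted p = 0.118), and Bsg (-0.215, adjusted p = 0.126) were lower in every knockdown library but did not pass. The call for Slc25a11 was lost with total-count scaling, where 1 gene of the list was lower, and without any single library but knockdown library 2, when 1 gene was lower. That for Slc16a3 was lost without knockdown library 1, that for Slc16a1 without control library 2, and that for Gpd1 without control library 1 or 2 or knockdown library 1 or 3. Accordingly 1 gene was higher when control library 2 or knockdown library 1 was left out, and 2 when control library 1 or knockdown library 3 was.

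Of 8 pentose phosphate genes Taldo1, transaldolase, rose (0.53, adjusted p = 0.00782) and none fell, and the count was 2 without control library 1 or knockdown library 2. Of 9 glycogen genes 2 rose, Ppp1r3c, a glycogen-targeting subunit of protein phosphatase 1 (0.79, adjusted p = 0.00869), and the glycogen synthase gene Gys1 (0.54, adjusted p = 0.0487), and none fell. The call for Gys1 was lost without any single library but knockdown library 2, when 1 gene was higher.

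Of 14 tested genes of the hypoxia response, 3 rose and 3 fell, with a median of 0.18. Hif1a, the oxygen-regulated subunit of hypoxia-inducible factor, which is known to switch on many glycolytic genes, rose from 61.0 to 97.9 CPM (log2 fold change 0.68, adjusted p = 0.00231). Its partner gene Arnt (-0.77, adjusted p = 0.00653), the prolyl hydroxylase gene Egln1 (-0.63) and the asparaginyl hydroxylase gene Hif1an (-0.51), whose products restrain the factor, fell. Egln2, another prolyl hydroxylase gene (0.26, adjusted p = 0.0976), was higher in every knockdown library, and the groups overlapped for Vhl (-0.16). Neither Egln2 nor Vhl passed. The factor's target genes Ndrg1 (0.43) and Vegfa (0.50) rose, and were named after their values were seen. The target genes Egln3 (0.64, also a prolyl hydroxylase gene), Ankrd37 (0.20), P4ha2 (0.15), Bnip3 (0.06) and P4ha1 (-0.205) did not pass, and Car9 was not tested. Calls were lost for Egln1 without control library 2 and with total-count scaling, for Hif1an with total-count scaling and without any of control libraries 1 and 3 and knockdown library 1, for Ndrg1 without control library 1 or 2 or knockdown library 1 or 3, and for Vegfa without any single library but knockdown library 3. The higher genes numbered 1 without control library 1 or 2 or knockdown library 1, and 2 without control library 3 or knockdown library 2. With total-count scaling 5 genes of the list were higher and 1 was lower.

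Promoter windows from RefSeq on GRCm38.p6, which reach 250 bases before and 50 after the most upstream start listed for a gene, were found for 43 of the 45 members. The letters ACGTG or GCGTG, the core of the hypoxia response element, were searched on both strands, where CACGTG holds ACGTG on each strand. They occurred in 69.8% of the members' windows and 43.8% of the windows of 27025 genes. The members' windows also had less A and T, with a median of 39.3% against 47.3%, and the match is a description of letters only. The 250 bases before the start are printed for Pdk2 and Pgk1, which fell, and for Suclg2, which rose and whose window holds no match, 5′ to 3′ on the gene's strand with the searched letters in capitals. Pdk2 lies on the minus strand at chr11:95041372-95041621, Pgk1 on the plus strand at chrX:106186850-106187099 and Suclg2 on the minus strand at chr6:95718847-95719096, and no annotated exon falls in these stretches.
Pdk2: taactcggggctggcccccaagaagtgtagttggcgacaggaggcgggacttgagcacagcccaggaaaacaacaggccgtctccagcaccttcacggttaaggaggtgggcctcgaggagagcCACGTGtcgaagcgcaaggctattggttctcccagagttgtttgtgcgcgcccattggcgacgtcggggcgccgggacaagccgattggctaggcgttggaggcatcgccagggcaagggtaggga
Pgk1: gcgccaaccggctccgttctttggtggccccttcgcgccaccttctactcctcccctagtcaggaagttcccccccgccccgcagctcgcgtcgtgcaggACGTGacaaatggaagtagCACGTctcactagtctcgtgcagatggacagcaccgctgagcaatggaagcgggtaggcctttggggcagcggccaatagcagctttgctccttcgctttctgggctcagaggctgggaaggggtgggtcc
Suclg2: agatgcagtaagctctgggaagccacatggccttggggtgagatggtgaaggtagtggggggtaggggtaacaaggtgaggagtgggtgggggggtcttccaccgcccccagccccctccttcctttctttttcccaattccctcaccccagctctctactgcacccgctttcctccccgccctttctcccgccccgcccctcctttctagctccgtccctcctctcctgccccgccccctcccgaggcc

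The match in Pdk2 is the palindrome CACGTG, counted on both strands, at 126 bases before the start. Pgk1 holds a match on each strand, at 150 and 131 bases before the start. Hif1a rose and these 2 genes fell in the same libraries, and the windows say nothing of whether the factor binds there. Of the other called members, windows of Pfkfb2 and Pfkfb3, which rose, and of Idh1 and Mdh1, which fell, each hold 1 match. That of Dlat, which fell, holds 0.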

How the data were processed

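The authors deposited whole-number counts per gene for 6 libraries. Per the submitters' processing notes TopHat2 2.0.8 and mm10 were used. How reads were counted, by strand or not and with which treatment of several alignments, is not given in the sources used here, which matters for genes with overlapping neighbours or processed pseudogenes, such as Gapdh.

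Counts were tested in R 4.3.3 with edgeR 4.0.16 (quasi-likelihood, 2-sided) after TMM scaling and filterByExpr (minimum count 10, minimum total 15), and p-values were adjusted by Benjamini-Hochberg over all 16766 genes (threshold 0.05). Standard errors were derived from the F statistic. The test was also run on simulated counts, which cannot tell whether the libraries here are independent. Groups and replicate numbers came from the sample titles. Replicate libraries differed by far more than sampling noise (chi-square per gene between 58.5 and 156).

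Named genes were Satb1, the called members, the 2 most abundant of each role, the 2 uncalled members with the smallest p and, of each related list, up to 4 called genes with the smallest p. Values of further members were picked with the results in view. The members and lists were chosen with earlier results of these data known, and the shares within enzyme families were added after the data were seen. Transcript lengths and exon overlaps came from GENCODE M21 on GRCm38, the assembly of mm10, by NCBI gene number (20945 of 23079 rows matched), using the longest principal transcript. Exons also overlap a neighbouring gene for Aldoa, Gapdh, Gpi1, Hk1, Idh3b, Mdh1, Pdha1, Pfkfb1, Pfkm, Pfkp, Slc2a1 and Tpi1, whose counts are uncertain to that extent. Tigar, Pkm, Mpc1 and Mpc2 were matched by that number through the RefSeq gene table. Alternatives were other scalings, DESeq2 1.42.0, limma-voom (limma 3.58.1), other filters, the replicate block and leaving out each library.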

Additional observations from a re-analysis of the deposited data

How the results depend on the processing

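Calls for Pdk2, Idh1, Mdh1, Suclg2 and Pfkfb2 kept their direction and their side of the threshold under all 13 alternatives. With total-count scaling 2770 genes were higher and 972 lower, members 10 and 3, glucose entry genes higher 1, glycolysis genes 6 and 0, pyruvate dehydrogenase genes 1 and 1, cycle genes higher 2, other pathway genes 3 and 5, lactate and shuttle genes lower 1, pentose phosphate genes higher 2, glycogen genes higher 4, and hypoxia genes 5 and 1. The log2 fold change of Aldoa reversed to 0.135 with that scaling and to 0.013 with a filter at a mean of 1 CPM, and that of Mdh2 to 0.059 with total counts; the cause was not tested.
With the filter at a mean of 1 CPM 1 pyruvate dehydrogenase gene was lower, and 2 pentose phosphate and 5 hypoxia genes were higher. Relative log expression, DESeq2 and limma-voom each called 2 pentose phosphate genes higher, limma-voom and no low-count filter each called 1 glycogen gene higher, and the Hk2/Hk1 log2 ratio difference moved from 0.741 to 1.498 on raw counts plus 1.
Leaving out 1 library gave 804 to 1356 genes higher and 1132 to 2054 lower, members lower 3 to 5, glycolysis genes higher 1 to 2 and lower 0 to 1, pyruvate dehydrogenase genes lower 1 to 2, other pathway genes lower 5 to 8, lactate and shuttle genes lower 1 to 2 and higher 1 to 3, pentose phosphate genes higher 1 to 2, glycogen genes higher 1 to 2 and hypoxia genes higher 1 to 4. It reversed values near 0: Slc2a3 ranged from -0.046 to 0.046, Gapdh from -0.095 to 0.142, Aldoa from -0.115 to 0.050 and the Ldha/Ldhb log2 ratio difference from -0.126 to 0.070.
Whether same-numbered libraries share a mouse is not given in the labels. They had correlations of deviations of 0.347, 0.028 and 0.418, not every library correlated best with its own number, and they were not treated as paired. With the replicate block no member lost its call, and Hk1 (-0.31, adjusted p = 0.0135), Ldhb (0.25, adjusted p = 0.00637), Aldoc, Eno1, Ldha, Cs and Ogdh gained one, so that 7 members were higher and 8 lower. Calls over all genes also grew, from 1421 higher and 2115 lower without the block to 1924 and 2789 with it. Glucose entry genes lower then numbered 1, glycolysis genes higher 6, cycle genes lower 4, and other pathway genes 2, pentose phosphate genes 2 and hypoxia genes 5 higher. Depth limits only the low members: Hk2 had 14 to 97 counts per library.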
